A study of Mus musculus with 6 samples.

Results

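The 10 immediate early transcription factors described here are Fos, Fosb, Fosl2, Jun, Junb, Jund, Egr1, Ier2, Atf3 and Klf6. They were chosen by name: each is the row of the gene count table whose mouse symbol in the GENCODE annotation is one of these, which gave 10 of the 55450 genes in the table, and all 10 passed the filter on low counts. Poly(A) RNA-seq was carried out on CD31-positive cells freshly isolated from the brains of mice at postnatal day 7. The control group (3 libraries) carried Cdh5(PAC)-CreERT2 and 1 floxed Rbpj allele (Rbpjflox/WT), and the mutant group (3 libraries) carried the same Cre and floxed alleles on both chromosomes (Rbpjflox/flox). The Cre, shared by both groups, is under the control of Cdh5, the gene of endothelial cadherin, and every pup was given 100 µg of tamoxifen on days 1 and 2, so the controls too can lose 1 Rbpj copy in endothelial cells. RNA of many pups of both sexes, of mixed FVB/N and C57BL/6 descent, was pooled, and it is not clear from the labels whether the 3 libraries of a group are separate pools. The p-values thus speak only of the spread among these libraries, which may be technical.

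Immediate early genes are transcribed within minutes of a signal, without the need for new protein, and their short-lived transcripts fall again soon after. Fos family proteins pair with Jun family proteins through leucine zippers to form AP-1, which binds DNA at sites such as TGACTCA. Atf3 is a related leucine zipper factor of the stress response, Egr1 and Klf6 are zinc finger factors, and Ier2 encodes a small nuclear protein. In endothelial cells these genes are known to respond to growth factors, to blood flow and to injury, and they are also known to be induced while tissue is taken apart for cell isolation. Here each brain was digested with collagenase for up to 45 minutes at 37 °C before the cells were bound to CD31 beads. What the digestion added to these levels was not tested.

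Libraries held 75744913 to 82092461 counts, where about 4 counts stand for 1 read pair, and each member had between 1758 and 11004 read pairs per library. Expression is given as CPM, the count of a gene relative to its library's total, with libraries scaled by TMM. Rbpj itself had 53.8 to 54.3 CPM in the control libraries and 45.2 to 47.9 CPM in the mutant libraries (log2 fold change -0.21 ± 0.042 SE, adjusted p = 0.0129, edgeR). Exons that Cre leaves in place are part of this count. Endothelial markers were abundant: the 12 listed summed to 13854 to 14268 CPM in control libraries against 14333 to 15501 CPM in mutant ones, and Cldn5, Cdh5 and Pecam1 were each above 1100 CPM on average in every group. Markers of other cells were present as well. The 17 microglia and macrophage markers summed to 1960 to 2012 CPM in control libraries against 1536 to 1584 CPM in mutant ones, with none at 0. The 8 erythroid markers summed to 6975 to 7180 CPM and 4666 to 4962 CPM in the same order.

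Fos, Jun and Egr1 fell in the mutant libraries, Klf6 and Fosl2 rose, and the other 5 members did not pass the test. The called changes were modest: Fos fell by 18.7%, Egr1 by 18.2% and Jun by 12.7%, while Klf6 rose by 24.8%. A gene was called at an adjusted p under 0.05 by the edgeR quasi-likelihood test, with Benjamini-Hochberg adjustment over all 19549 genes tested. By this rule 5 of 10 members were called, 2 higher and 3 lower, where 14.4% of all tested genes were called, 7.56% higher and 6.83% lower. The 3 control values lay wholly apart from the 3 mutant values for 7 members, 3 with the mutant above and 4 with it below, against 34.1% of all tested genes, 16.8% and 17.3% in the same order. The median log2 fold change was -0.06 over the members and -0.01 over all genes tested. Abundant genes were measured more precisely: the 4288 genes with a mean of at least 50 CPM had a median coefficient of variation (SD over mean) within a group of 3.34% in control and 3.67% in mutant libraries, against 8.95% and 9.55% over all genes tested, and all 10 members lie in this range of expression. Fewer cells of a type and less RNA per cell cannot be told apart in such bulk libraries.

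**Figure D1:**
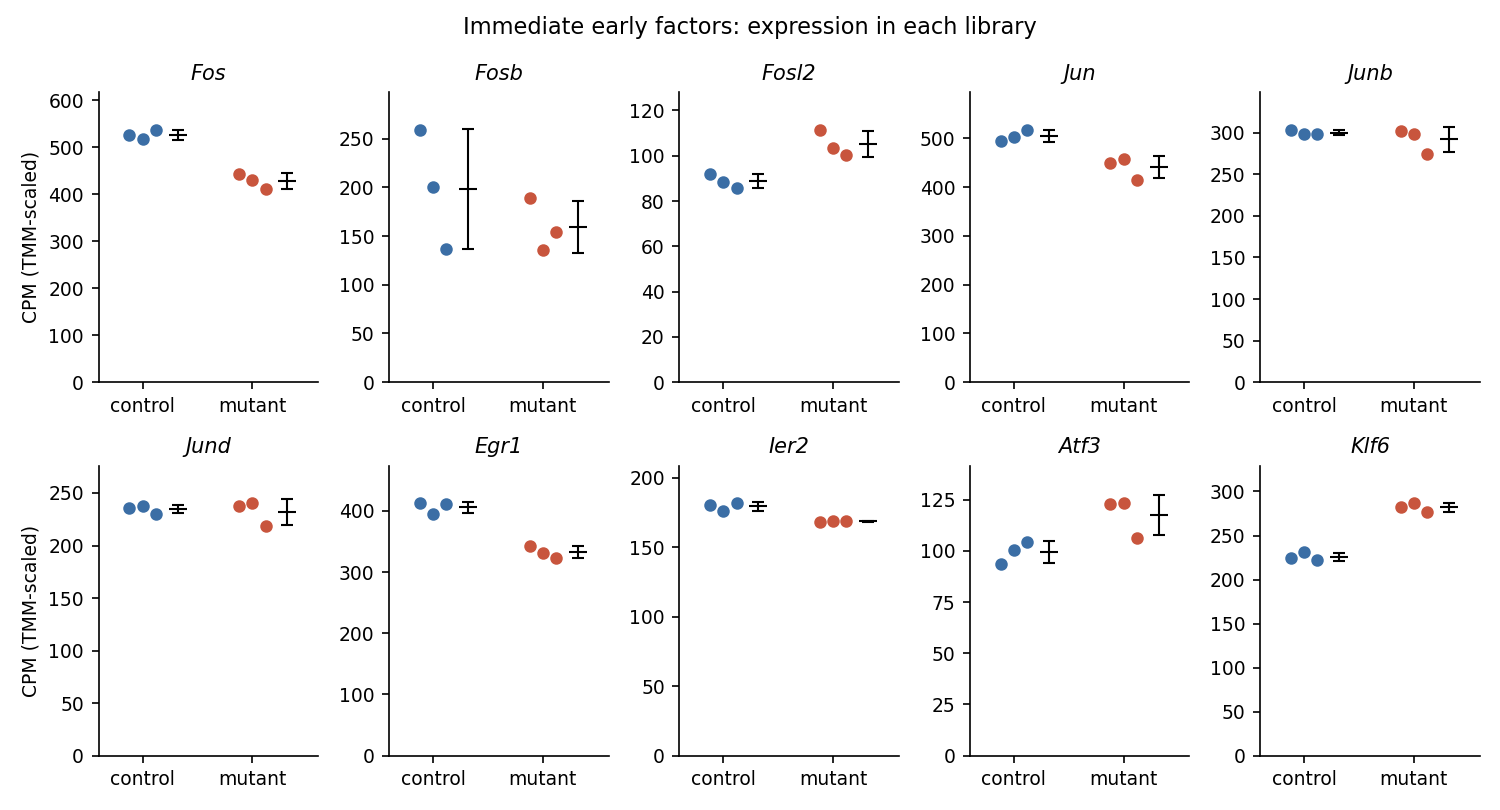
Expression of each member in every library, as TMM-scaled CPM on a vertical axis from 0; points are the 3 control (blue) and 3 mutant (red) libraries in the order 1 to 3, and the black bar is the group mean ± SD. Fos, Jun and Egr1 lie lower and Klf6, Fosl2 and Atf3 higher in all 3 mutant libraries, while the control values of Fosb spread from 136 to 259 CPM.

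Fos (ENSMUSG00000021250), on the plus strand of chromosome 12 from 85473890 to 85477273 (GRCm38), encodes the founding partner of the AP-1 dimer and had the highest CPM of the members in control libraries. It had 527, 517 and 537 CPM in control libraries 1, 2 and 3 and 444, 431 and 410 CPM in mutant libraries 1, 2 and 3. Every mutant value lay below every control value, and the gap between the groups was wider than the range within either. The means were 527 ± 10.2 CPM in control libraries against 429 ± 17.0 CPM in mutant ones (SD, n = 3), and the log2 fold change was -0.30 ± 0.038 (SE; adjusted p = 0.00189, edgeR). With 1 library left out in turn, the log2 fold change of Fos stayed between -0.32 and -0.26 and the adjusted p was at most 0.013.

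Fosl2 (ENSMUSG00000029135), on the plus strand of chromosome 5 from 32135801 to 32157842, encodes a Fos relative that lacks the strong activation domain of Fos. Its values were 92.1, 88.4 and 85.8 CPM in control and 111, 104 and 100.2 CPM in mutant libraries. All mutant libraries were above all control libraries, opposite to Fos. Fosl2 rose by 0.24 ± 0.051 on the log2 scale (SE; adjusted p = 0.0176, edgeR). This call was lost without control library 2 (adjusted p = 0.0571, edgeR), control library 3 (0.06) or mutant library 1 (0.0501), with a log2 fold change of at least 0.20.

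Fosb (ENSMUSG00000003545), on the minus strand of chromosome 7 from 19302696 to 19310051, encodes another Fos partner of Jun proteins and was the least repeatable member. It had 259, 200 and 136 CPM in control and 189, 136 and 154 CPM in mutant libraries. The groups overlapped widely. Its coefficient of variation was 30.9% in control libraries, larger than in 97.1% of genes with a mean of at least 50 CPM, and 16.8% in mutant libraries. The log2 fold change of Fosb was -0.31 with a 95% interval from -1.05 to 0.42 (adjusted p = 0.568, edgeR), and it ranged from -0.52 without control library 3 to -0.07 without control library 1. Because the interval spans falls of the size seen in Fos as well as rises, no difference was detectable for Fosb.

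Jun (ENSMUSG00000052684), on the minus strand of chromosome 4 from 95049034 to 95052222, encodes the Jun protein that gives AP-1 much of its activity. It had 495, 503 and 518 CPM in control and 450, 458 and 415 CPM in mutant libraries. All 3 mutant values were below the lowest control value, and mutant library 3 was the lowest. Jun fell by 0.20 ± 0.044 on the log2 scale (SE; adjusted p = 0.0237, edgeR). This was the weakest of the 5 calls: the adjusted p of Jun was 0.0624, 0.0801 and 0.0773 without control library 1, 2 or 3, 0.0522 without mutant library 1 and 0.0691 with the replicate number as a block. The antisense gene Junos overlaps 232 bases of Jun exon, at 0.272 CPM in both groups.

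Junb and Jund did not differ between the groups beyond the spread of the libraries. Junb (ENSMUSG00000052837), on the minus strand of chromosome 8 from 84974484 to 84978718, had 303, 298 and 298 CPM in control and 302, 299 and 275 CPM in mutant libraries, and it is known as a Jun protein that can hold back Jun activity. Jund (ENSMUSG00000071076), on the plus strand of chromosome 8 from 70698949 to 70700616, encodes the Jun protein that is usually present without a stimulus. It had 236, 238 and 230.1 CPM in control and 238, 240.1 and 218 CPM in mutant libraries. In both genes mutant library 3 alone lay below the control range. The 95% interval of the log2 fold change ran from -0.14 to 0.06 for Junb and from -0.12 to 0.09 for Jund (adjusted p = 0.638 and 0.858, edgeR), so a change of the size of the Fos fall lies outside both. Without mutant library 3 the log2 fold change turned to 0.01 for Junb and to 0.03 for Jund. Prdx2 shares 173 bases of exon with Junb on the opposite strand at 244 and 241 CPM in control and mutant libraries. Gm11175 shares 877 of the 1668 exon bases of Jund on the opposite strand, at 0.537 and 0.137 CPM in the same order. Strand use in the counting is not stated in the labels.

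Levels can be compared between genes only per length, so CPM was divided by the kilobases of merged exon of each gene. On this scale Fos led the members in control libraries, with 224 ± 4.35 CPM per kb (SD, n = 3), followed by Jun at 158 ± 3.63, Jund at 141 ± 2.47, Junb at 130.3 ± 1.37, Ier2 at 118 ± 1.98 and Egr1 at 90.6 ± 2.05. Klf6 at 51.5 ± 1.07, Atf3 at 46.1 ± 2.52, Fosb at 31.8 ± 9.83 and Fosl2 at 9.17 ± 0.325 CPM per kb were lower. The libraries of no neighbours in this order overlapped in value, though Fosb reached 41.5 in control library 1, near Atf3. In mutant libraries Jund (139 ± 7.21) and Jun (138 ± 7.12) were too close to order by their means, though Jund lay slightly above Jun within each library. Within the Fos family, Fos made up 84.6% ± 3.36 of the summed level in control and 83.3% ± 1.52 in mutant libraries, which overlap. The share of Fosl2 was 3.42% to 3.50% in control and 4.94% to 4.99% in mutant libraries, without overlap. Within the Jun family the share of Jun was 36.2% to 37.8% in control and 34.0% to 34.4% in mutant libraries, while that of Jund was 32.1% to 33.2% and 34.3% to 34.5%. Fosl1, the fourth Fos family gene, was near the floor of detection at 0.325 ± 0.0444 and 0.562 ± 0.233 CPM. The exons merged here include alternative ends, so a level per kb understates genes whose longest form is rarely used.

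**Figure D2:**
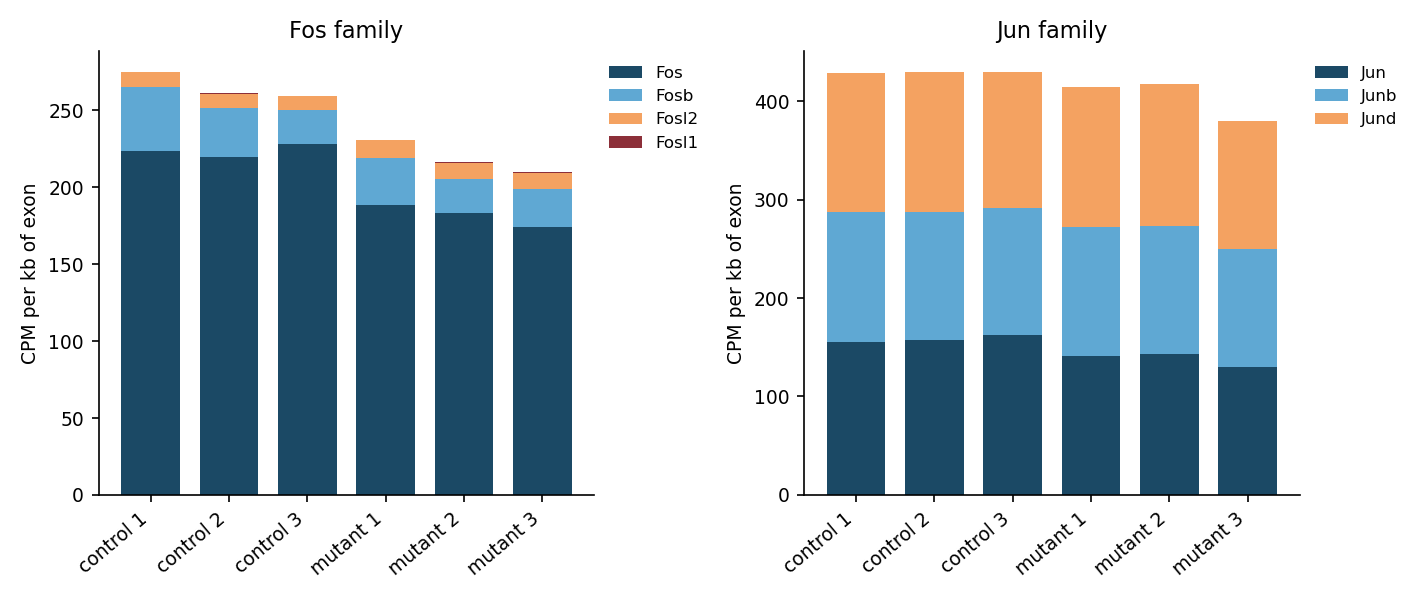
Stacked levels of the Fos family (left) and the Jun family (right) in each library, in CPM per kb of merged exon on axes from 0. Fos makes up most of its family in every library, the Fos family sum is lower in all 3 mutant libraries, and the 3 Jun genes hold similar shares, with mutant library 3 lowest in sum.

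Egr1 (ENSMUSG00000038418), on the plus strand of chromosome 18 from 34859823 to 34864984, encodes a zinc finger factor induced through the ERK kinases and serum response factor. It had 412, 396 and 411 CPM in control and 343, 331 and 324 CPM in mutant libraries. The groups were far apart, with the highest mutant library well below the lowest control library. Egr1 fell by 0.29 ± 0.035 on the log2 scale (SE), with an adjusted p of 0.00145 (edgeR), and the adjusted p was at most 0.0118 with any 1 library left out. The fall was close in size to that of Fos: the Fos to Egr1 ratio of CPM was 1.28 to 1.31 in control and 1.27 to 1.303 in mutant libraries, which overlap.

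Klf6 (ENSMUSG00000000078), on the plus strand of chromosome 13 from 5861482 to 5870394, encodes a Krüppel-like factor known from the endothelial response to vascular injury. It had 225, 231 and 222 CPM in control and 282, 287 and 277 CPM in mutant libraries. This was the clearest rise among the members, and no library crossed the gap. Klf6 rose by 0.32 ± 0.032 on the log2 scale (SE), with an adjusted p of 0.000579 (edgeR) and at most 0.00497 with any 1 library left out. The Egr1 to Klf6 ratio of CPM was 1.71 to 1.85 in control libraries and 1.16 to 1.22 in mutant libraries.

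Atf3 (ENSMUSG00000026628), on the minus strand of chromosome 1 from 191170296 to 191218039, is a stress-induced factor and lay just above the threshold. Its values were 93.5, 100.4 and 104 CPM in control and 123, 123 and 107 CPM in mutant libraries. The groups did not overlap, but mutant library 3 sat next to control library 3. The log2 fold change of Atf3 was 0.24 ± 0.068 (SE) with an adjusted p of 0.055 (edgeR). The adjusted p was 0.0117 without mutant library 3, 0.0497 with RLE size factors, 0.0366 without the low-count filter and 0.0197 with DESeq2. It was 0.05026 to 1 under the other 11 alternatives.

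Ier2 (ENSMUSG00000053560), on the minus strand of chromosome 8 from 84661331 to 84662852, had 180.5, 176 and 181 CPM in control and 168, 169 and 169 CPM in mutant libraries. The mutant libraries agreed closely and all lay below the control libraries. The log2 fold change was -0.09 ± 0.031 (SE) and missed the threshold (adjusted p = 0.105, edgeR), as it did under all 15 alternatives.

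**Figure D3:**
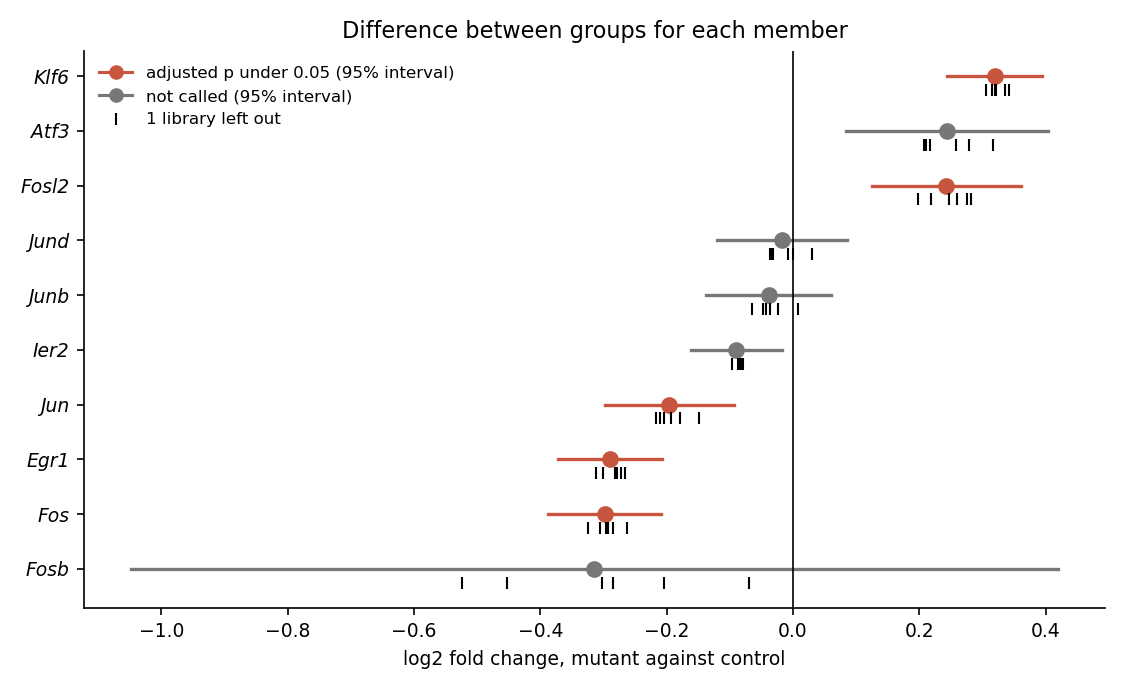
Log2 fold change of mutant against control for each member (horizontal axis), with its 95% interval; red marks an adjusted p under 0.05, grey the members not called, and black ticks the value with each of the 6 libraries left out. Fos, Egr1 and Jun lie below 0, Klf6 and Fosl2 above, and the interval of Fosb spans from -1.05 to 0.42.

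Mutant library 3 had the lowest mutant value in 8 of 10 members and the lowest TMM factor of the 6 libraries, 0.978. Without it, the log2 fold changes were -0.26 for Fos, -0.15 for Jun, -0.27 for Egr1, 0.28 for Fosl2 and 0.34 for Klf6, and all 5 were still called. Among control libraries no single one led: the highest value was in library 1 for 4 members, in library 2 for 2 and in library 3 for 4.

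Promoter sequence is shown for Fos, Jun and Klf6, which moved in different directions, to let the letters before their start sites be compared. Each run is the 250 bases before the RefSeq transcription start (GRCm38.p6), 5′ to 3′ on the strand of the gene: Fos at chr12:85473640-85473889 (plus), Jun at chr4:95052223-95052472 (minus) and Klf6 at chr13:5861239-5861488 (plus). Capitals mark 4 kinds of match. The core of the cAMP response element is TGACG, and a common form of the promoter box bound by the TATA-binding protein is TATAAA. The core of the site bound by the protein that Rbpj encodes is TGGGAA. An octamer close to the AP-1 site, TGACATCA, was added to the search after the sequences had been read. Both strands were searched.
Fos: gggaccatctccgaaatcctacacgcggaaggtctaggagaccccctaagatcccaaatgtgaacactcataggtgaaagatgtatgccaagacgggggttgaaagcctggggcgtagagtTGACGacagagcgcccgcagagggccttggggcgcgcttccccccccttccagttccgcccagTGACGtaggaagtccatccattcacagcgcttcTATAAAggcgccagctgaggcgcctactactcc
Jun: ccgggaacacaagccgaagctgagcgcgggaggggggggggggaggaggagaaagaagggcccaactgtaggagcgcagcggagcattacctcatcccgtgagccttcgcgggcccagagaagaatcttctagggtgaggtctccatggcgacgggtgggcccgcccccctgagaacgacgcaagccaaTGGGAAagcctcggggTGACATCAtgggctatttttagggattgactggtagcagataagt
Klf6: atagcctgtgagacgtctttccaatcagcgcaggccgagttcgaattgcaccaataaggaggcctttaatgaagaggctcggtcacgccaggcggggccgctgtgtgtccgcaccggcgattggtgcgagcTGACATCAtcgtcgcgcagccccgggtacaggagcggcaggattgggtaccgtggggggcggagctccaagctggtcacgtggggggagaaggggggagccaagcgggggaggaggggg

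The Fos promoter held TGACG at 129 to 125 and at 66 to 62 bases before the start and TATAAA at 33 to 28 bases. The Jun promoter held TGGGAA at 61 to 56 bases and TGACATCA at 45 to 38 bases before the start, and the Klf6 promoter held TGACATCA at 119 to 112 bases. Promoters of 8 of the 10 members were in the RefSeq table (all but Egr1 and Ier2). Among these 8, TGACG was found in 4 (Fos, Fosb, Junb and Atf3), against 17.8% of all 32851 promoters in the table, TGGGAA in 2 (Jun and Jund), against 21.6%, and TATAAA in 1 (Fos), against 12.4%. The added octamer was found in Jun and Klf6 and in 2.93% of all promoters. Fosl2, called higher, held none of these motifs, and its promoter sequence is not printed. None of the 8 held TGACTCA (4.46% of all promoters), TGACGTCA (1.55%), the EGR site GCGTGGGCG (0.536%) or a CArG box, the site of serum response factor (1.47%), in this window. The RefSeq starts differ from the GENCODE gene spans given above for some members: the Jund window lies upstream of the printed span, and the Atf3 and Fosl2 windows lie inside theirs. A match of letters is a description and not a site in use. The GC content of these promoters was 58.4% for Fos, 61.2% for Jun and 64.8% for Klf6, against a median of 52.4% over all promoters. It was above that median in all of the 8 but Jund (47.6%), and highest in Fosb (68.8%).

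Other immediate early genes moved in both directions too, more often down. Of 38 tested, 4 rose and 7 fell, and the median log2 fold change was -0.12. These calls were 28.9% of the list, against 14.4% of all genes tested. The share over all genes depends on expression: with a mean of at least 5 CPM required, 2723 of 11739 genes were called. In that fit 4 genes of this list rose and 9 fell. The limit applies to the shares of the lists below too. Klf4, which with Klf2 is a flow-responsive factor of endothelium, fell from 191 ± 8.03 to 130 ± 8.66 CPM (-0.55 ± 0.056 SE, adjusted p = 0.000606, edgeR). Gadd45b (-0.83) and Klf2 (-0.61) fell by more, and Ccn1, a matrix protein gene, had the smallest called fall (adjusted p = 0.0431, edgeR), a call that only 3 of 15 alternatives kept. Dusp1, a phosphatase that switches off MAP kinases, fell from 320 ± 11.2 to 264 ± 10.1 CPM (-0.27 ± 0.042 SE, adjusted p = 0.0043, edgeR). Zfp36 and Zfp36l1, which bind AU-rich transcripts and speed their decay, fell by 0.21 and 0.20 on the log2 scale. The adjusted p of Zfp36 (edgeR) rose to 0.0716, 0.059 and 0.0618 with control library 2, control library 3 or mutant library 2 left out and to 0.068 with the replicate block, and that of Zfp36l1 to 0.0579 and 0.0512 without control library 1 or mutant library 2. Without mutant library 2 the count of lower genes was 4.

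Trib1, a pseudokinase that acts on protein turnover, rose from 58.4 ± 3.87 to 92.3 ± 3.18 CPM (0.66 ± 0.056 SE, adjusted p = 0.000264, edgeR), and the kinase gene Sgk1 rose from 231 ± 7.46 to 305 ± 4.92 CPM (0.40 ± 0.035, adjusted p = 0.000338). Dusp5, a phosphatase of nuclear ERK, rose by 0.59 on the log2 scale. Dusp2 had a log2 fold change of 0.22 (adjusted p = 0.0348, edgeR), which was lost without control library 1 (0.104), control library 2 (0.104), mutant library 1 (0.0888) or mutant library 2 (0.103) and with the replicate block (0.102).

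Other leucine zipper factors of the AP-1, ATF and Maf groups were called in 4 of 16 cases, or 25%, against 14.4% of all genes tested. Maff, a small Maf protein, rose from 55.9 ± 3.76 to 80.8 ± 1.49 CPM (0.53 ± 0.054 SE, adjusted p = 0.000611, edgeR). Mafk, its close relative, fell from 46.4 ± 2.96 to 35.1 ± 0.641 CPM (-0.40 ± 0.058 SE, adjusted p = 0.00327, edgeR), and Maf (-0.44), a large Maf factor that macrophages also use, fell as well. The median of this list was -0.09. The count of higher genes was 2 without control library 1 or control library 2.

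Among 26 upstream kinases and factors that lead to immediate early genes, 4 rose and 1 fell, which is 19.2% of the list against 14.4% of all genes tested and so near the background. The median was 0.05. Srf, the serum response factor gene, had 49.0 ± 4.07 and 47.6 ± 0.675 CPM in control and mutant libraries (adjusted p = 0.745, edgeR). Elk3 (0.15), Map2k1 (0.16), Braf (0.25) and Crem (0.39) were higher. The count of higher genes was 1 without control library 1, 2 or 3 and with the replicate block, and 2 without mutant library 1 or mutant library 3. Without control library 1 the count of lower genes was 2.

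A list of 18 heat shock and other stress genes, known to respond to handling, had 4 lower and 3 higher, and the median was 0.02. The called share was 38.9%, against 14.4% of all genes tested. The 4 lower genes all encode heat shock proteins, whereas of the 3 higher ones Mt1 and Mt2 are metallothionein genes and only Hsp90ab1 encodes a heat shock protein. Hspa1b fell from 174 ± 5.61 to 78.1 ± 6.91 CPM (-1.15 ± 0.066 SE, adjusted p = 4.87e-05, edgeR) and Hspa1a from 136 ± 9.59 to 63.5 ± 2.98 CPM (-1.10 ± 0.062, adjusted p = 4.24e-05). These genes are near-identical copies, so reads may have been split between them. Hspb1 (-0.68) and Hsph1 (-0.30) also fell, while Mt2 (0.78) and Mt1 (0.39) rose. Hsp90ab1 was called higher at 0.12, a call lost without any 1 library except mutant library 3 and with the replicate block (adjusted p from 0.0661 to 0.166, edgeR).

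Genes long described as AP-1 targets were more often higher than lower. Of 22 listed, 20 were tested, 10 were higher and 2 lower, and the median was 0.33. The called share was 60% of those tested, against 14.4% of all genes tested. The summed level of the list overlapped between groups, at 6332 to 6862 CPM in control and 6168 to 6979 CPM in mutant libraries. The urokinase receptor gene Plaur rose from 28.4 ± 0.432 to 72.5 ± 3.21 CPM (1.35 ± 0.048 SE, adjusted p = 6.92e-06, edgeR) and the gelatinase gene Mmp9 from 19.9 ± 1.9 to 50.8 ± 3.51 CPM (1.35 ± 0.086, adjusted p = 7.06e-05). Vim (0.55), Plau (0.54) and Tgfb1 (0.44) rose less. Icam1, a leukocyte adhesion gene, fell by 0.36 on the log2 scale. Mmp2 was called lower at -0.32, with an adjusted p of 0.052, 0.0624, 0.0664 and 0.0669 without control library 1, control library 2, mutant library 1 or mutant library 2 and 0.0556 with the replicate block (edgeR). The count of lower targets was 1 without any of these libraries or with the block, and 3 without control library 3. Mmp13 was at 0 counts in every control library, and the median was unchanged when it was taken at a floor of 3 counts per library. A median cannot move while Mmp13 stays above it, so this says nothing about the other targets. These genes have many other regulators.

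**Figure D4:**
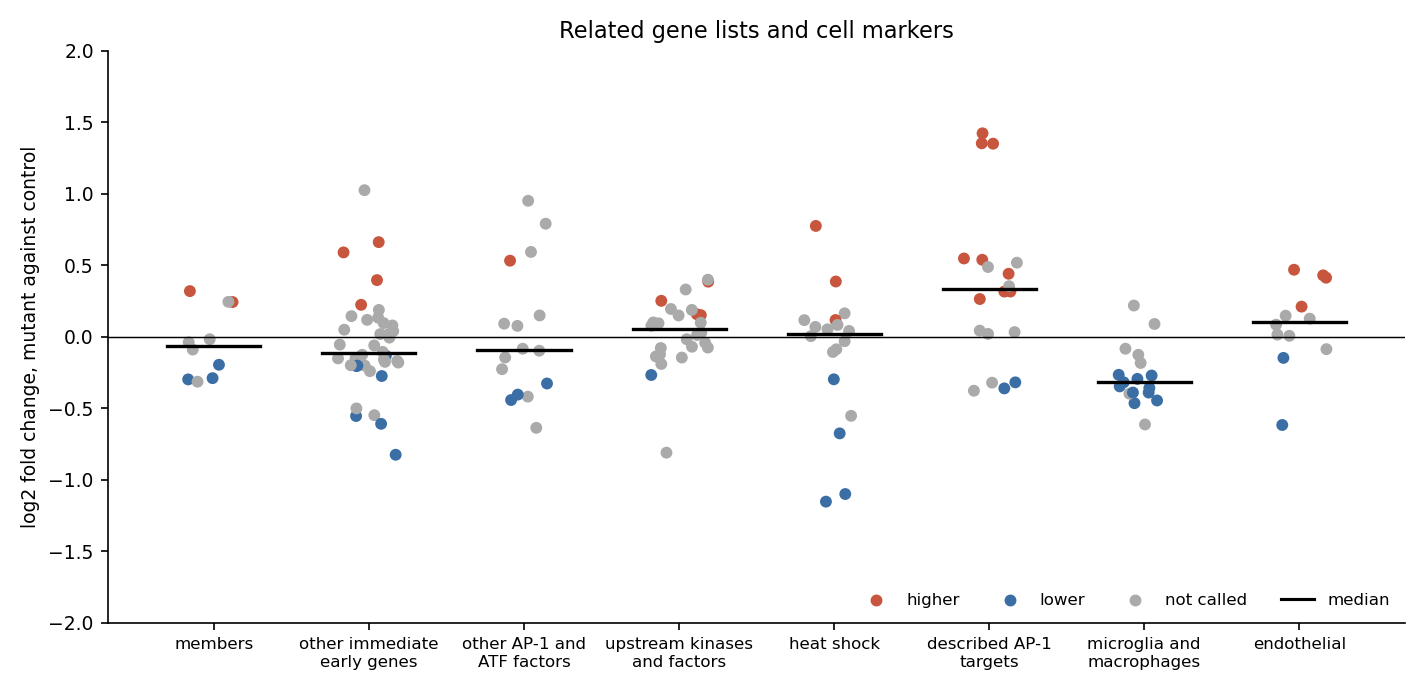
Log2 fold change of mutant against control (vertical axis) for each tested gene of the members, the related lists and 2 marker lists, with the list median as a black line; red is called higher, blue called lower and grey not called. Mmp13, at 0 in every control library, is off the scale and not drawn; the described AP-1 targets have a median of 0.33 and the microglia and macrophage markers one of -0.32.

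Cell markers also differed between the groups, in both directions, where 14.4% of all genes tested were called. Of the 17 microglia and macrophage markers, 10 were lower and none higher (58.8% called), with a median of -0.32. Csf1r, the receptor gene that keeps microglia alive, fell from 435 ± 22.5 to 332 ± 2.67 CPM and Tmem119 from 55.2 ± 2.35 to 42.1 ± 2.92 CPM. P2ry12 had 132 ± 32.4 and 100.4 ± 14.4 CPM (adjusted p = 0.364, edgeR). Cx3cr1 was called lower (-0.46, adjusted p = 0.0471), a call lost without any 1 library except mutant library 3 (adjusted p from 0.07535 to 0.153, edgeR), without the low-count filter (0.0515) and with the replicate block (0.05775). Of the 13 pericyte and smooth muscle markers, 3 were higher and 6 lower (69.2% called). The contractile genes of smooth muscle fell most: Acta2 from 179 ± 6.22 to 71.7 ± 9.12 CPM (log2 fold change -1.32), Tagln by 1.17, Myh11 by 1.02 and Cnn1 by 1.84 on the log2 scale. The pericyte channel genes Abcc9 (0.52) and Kcnj8 (0.49) rose. Other called markers of this list, lower ones included, are not named here. The list median was -0.14. Its sum overlapped between the groups, at 4224 to 4350 CPM in control and 4296 to 4391 CPM in mutant libraries. Of 9 astrocyte markers 1 was lower (11.1% called), and their sum was 518 to 572 CPM in control libraries against 301 to 431 CPM in mutant ones. Fibroblast markers summed to 911 to 1020 CPM in control libraries against 617 to 797 CPM in mutant ones, and choroid plexus and ependyma markers to 5018 to 5459 and 3389 to 4412 CPM. Of the 12 endothelial markers, 4 were higher and 2 lower (50% called). Among the higher ones was Pecam1 (0.41), which encodes CD31, the protein used for the bead isolation. The lower ones were Tek and Cdh5, with log2 fold changes of -0.68 to -0.58 and -0.18 to -0.12 over the 15 alternatives. All 15 kept the call of Tek and 8 that of Cdh5. The part of these shifts in the results for the members was not tested.

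Over the 6 libraries, the gene closest to Fos among 11728 others with a mean of at least 5 CPM was Tmem126b, at a root mean square distance of 0.016 on the log2 scale after centring each gene on its mean. Mfsd14a (0.02), Dusp1 (0.022), Gypc (0.023) and Itgb5 (0.025) came next. The genes closest to Jun were Taf7 (0.015), Gclc (0.022), Msmo1 (0.023), Akr7a5 (0.024) and Dpm3 (0.024). These genes were picked by their values in the same 6 libraries, the group difference included.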

How the data were processed

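Poly(A) RNA-seq of CD31-positive brain cells was used, with 3 control and 3 mutant libraries. The table the authors deposited gives an estimated count for each gene, already whole and not normalized. Per the submitters' processing notes, cutadapt 1.10, FastQC 0.10.1, HISAT2, StringTie 1.3.4, edgeR and the build GRCm39 were used, with no role or parameter named. The deposited quality table gives the count of valid reads, and total counts were 1.51 to 1.53 times it. Low counts pile up at multiples of 4 (1118 to 1190 genes per library at 4, against 316 to 365 at 3), so about 4 counts stand for 1 read pair. All 55450 identifiers match GENCODE M21, whose symbols, lengths and GRCm38 positions are used.

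Genes were filtered with filterByExpr (19549 kept), scaled by TMM and compared with edgeR 4.0.16 (robust quasi-likelihood F test, R 4.3.3, group as the only term); the planned count test was kept for the estimated counts. The SE is the log2 fold change over the square root of F. Tested on simulated data, this fit recovered few 1.2-fold changes and made more false calls than the threshold allows. There the changed genes were drawn from low to high expression, library sizes were divided by 4, and fewer genes changed than were called here. Recovery for genes as abundant as the members was not measured. No libraries were identical, and same-group counts differed beyond sampling noise (median chi-square 1.81 to 2.62 times expectation), so none were merged. Tried as alternatives were RLE, library size only, no filter, a mean of at least 5 CPM, DESeq2 1.42.0, limma-voom (limma 3.58.1), counts divided by 4, glmTreat at 1.2-fold, a replicate block and each library left out. Named genes are the members and defining markers. From each related list up to 6 called genes per direction with a mean of at least 5 CPM are named. Srf, Fosl1, Mmp13, Tek and some weaker markers were named after their values were seen. So were the pericyte and smooth muscle genes and the genes that overlap members. The level of 50 CPM was chosen then too. Some genes of the related lists are not reported here by name. The members and lists were chosen with earlier results of these data known. Promoters are from RefSeq (GRCm38.p6).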

Additional observations from a re-analysis of the deposited data

How the results depend on the processing

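Of 64 single genes recomputed under 15 alternatives, 62 kept the sign of their log2 fold change in all. The exceptions were Junb and Jund, not called in any fit, which ranged from -0.065 to 0.0084 and from -0.036 to 0.0303 with each library left out and were above 0 only without mutant library 3; the cause was not tested. Against a minimum change of 1.2-fold (glmTreat), which asks for a larger effect, 0 members were called higher and 0 lower; the unadjusted p was 0.0175 for Klf6, 0.0699 for Fos and 0.0914 for Egr1. There the counts over all genes were 574 higher and 408 lower, against 1477 and 1335, and the counts of higher genes were 1 for heat shock and 0 for upstream genes. Counts of lower genes there were 0 for other AP-1 and ATF factors, 3 for other immediate early genes, 0 for upstream genes and 1 for described AP-1 targets. With library size only, 3 upstream genes were lower, and with a mean of at least 5 CPM, 2; the cause was not tested. With the replicate block, 1 upstream gene was higher and 1 target lower, and the calls of Jun, Zfp36, Dusp2, Hsp90ab1, Elk3, Map2k1, Braf, Mmp2, Ccn1, Cx3cr1, Cdh5, Ccl2 and Trem2 were lost. Numbers are shared across groups, but deviations of same-numbered libraries correlated at -0.017, 0.011 and 0.027. Those of differently numbered libraries correlated at -0.046 to 0.036, so same-numbered ones were no more alike. Whether same-numbered libraries were handled together cannot be told from these values. The block called 2059 genes in place of 2812. With each library left out, the counts ranged from 1 to 3 for members higher, 2 to 3 for members lower, 1 to 2 for other AP-1 and ATF factors higher, 4 to 7 for other immediate early genes lower, 1 to 3 for upstream genes higher, 1 to 2 for upstream genes lower, 1 to 3 for targets lower and 807 to 1125 for all genes lower, with fewer samples in each fit. The members rest on at least 1758 read pairs each, and with 3 libraries a group the spread between libraries sets the intervals.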
